A study of Mus musculus with 30 samples.

Results

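In mouse embryonic fibroblasts, 122 of 12674 measured genes were higher with each of 3 siRNAs, against p53, against lincRNA-p21 and against hnRNP-K, than with a non-targeting siRNA pool. A gene was a member when its mean log2 signal was at least 0.7 above the control mean (1.62-fold) with each siRNA in 1 set of 12 arrays, called hnRNPKKD. For a gene with several probe sets, the one with the highest mean signal on the 30 arrays stood for it, and names starting with Col, Krt, Mmp or Hnrnp were left out, which removed Col5a3 and Mmp11. The members were thus chosen by their hnRNPKKD values, which are given below as a description, with no test. They were then tested on arrays whose differences the choice had not used: a second siRNA set of 8 arrays, called lincP21KD, and a time course of 10 arrays. The choice of probe set and a filter on signal did use the mean of all 30 arrays.

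All cells were p53 LSL/LSL fibroblasts, in which a removable stop cassette keeps p53 off, from E13.5 embryos of a C57BL/6 x 129SvJ background. In both siRNA sets the cells received AdenoCRE, an adenovirus whose Cre recombinase restores p53, for 24 h, then an siRNA for 24 h, then 100 nM of the DNA-damaging drug doxorubicin for 13 h. The hnRNPKKD set held 3 arrays each of siP53, siLincp21, siHnrnpk and siControl. The lincP21KD set held 3 arrays of siP53, 3 of siLincp21 and 2 of siControl, and none of siHnrnpk. The time course held 1 array per virus at 0, 1, 3, 6 and 9 h of 500 nM doxorubicin, with AdenoCRE (p53 restored) or AdenoGFP (control virus, p53 off). The labels do not say whether arrays of a group came from separate cultures, so p-values in the siRNA set measure the spread between these arrays, which may be technical. In the time course no virus and time has a second array. The times stand in for replicates in the test between viruses, whose p-values measure how the difference varied over the times. Slope p-values measure the scatter around a line.

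p53 is a transcription factor that DNA damage activates, and among its direct targets is Cdkn1a, the cell cycle inhibitor p21. LincRNA-p21 is a long noncoding RNA transcribed next to Cdkn1a and induced by p53. hnRNP-K is an RNA- and DNA-binding protein with a preference for C-rich sequence that binds lincRNA-p21 and acts with it in gene repression in these cells. The 3 siRNAs ask which genes p53, lincRNA-p21 and hnRNP-K hold down in damaged cells, and which of these genes they share. Embryonic fibroblasts are known for secreting extracellular matrix, for receptors to growth factors and vasoactive peptides, and for a contractile cytoskeleton.

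The promoters of 4 members are shown because these members were among the 12 with the largest smallest-of-3 difference in the hnRNPKKD set, were at least 0.7 higher with siP53 and with siLincp21 in the lincP21KD set, and have a promoter in the RefSeq table of GRCm38.p6. Each is a window of 300 bases around the gene start, most of it upstream, 5′ to 3′ on the gene's strand, which is the minus strand for all 4. Antxr2 lies at chr5:98030968-98031267, Ednrb at chr14:103843652-103843951, Aldh6a1 at chr12:84450975-84451274 and Rfc1 at chr5:65335590-65335889. Capitals mark matches, on either strand, to 7 short motifs: AP-1 (TGANTCA), the cAMP response element core (TGACG), TEAD (GGAATG), E2F (TTCCCGC), the CCAAT box (CCAAT), the TATA box (TATAAA) and a C-rich run (CCCTCCC).
Antxr2: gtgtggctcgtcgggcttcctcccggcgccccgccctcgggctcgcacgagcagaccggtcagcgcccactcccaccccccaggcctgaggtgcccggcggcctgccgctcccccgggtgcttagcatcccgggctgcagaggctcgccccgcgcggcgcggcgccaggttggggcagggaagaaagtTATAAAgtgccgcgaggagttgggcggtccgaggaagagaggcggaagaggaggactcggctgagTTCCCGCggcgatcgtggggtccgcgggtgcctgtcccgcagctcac
Ednrb: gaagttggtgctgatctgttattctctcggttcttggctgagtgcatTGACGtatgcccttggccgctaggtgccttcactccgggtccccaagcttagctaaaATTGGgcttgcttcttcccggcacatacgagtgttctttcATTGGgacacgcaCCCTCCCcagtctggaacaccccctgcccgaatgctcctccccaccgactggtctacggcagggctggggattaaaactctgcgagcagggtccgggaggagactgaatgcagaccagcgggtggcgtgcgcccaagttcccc
Aldh6a1: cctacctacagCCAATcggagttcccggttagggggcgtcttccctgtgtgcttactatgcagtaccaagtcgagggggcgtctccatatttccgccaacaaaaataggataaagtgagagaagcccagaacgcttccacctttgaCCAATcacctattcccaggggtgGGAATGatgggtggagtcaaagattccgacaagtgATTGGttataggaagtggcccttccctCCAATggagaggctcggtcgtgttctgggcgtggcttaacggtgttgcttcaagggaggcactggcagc
Rfc1: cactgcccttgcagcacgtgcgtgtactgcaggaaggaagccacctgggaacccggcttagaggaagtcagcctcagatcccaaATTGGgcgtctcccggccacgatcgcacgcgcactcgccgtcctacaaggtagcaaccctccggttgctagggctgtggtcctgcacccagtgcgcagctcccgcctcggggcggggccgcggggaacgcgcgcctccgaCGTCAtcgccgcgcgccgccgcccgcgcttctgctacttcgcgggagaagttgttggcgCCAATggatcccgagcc
The Antxr2 promoter held a TATA box and an E2F match, and Ednrb held 2 CCAAT boxes, 1 cAMP element core and 1 C-rich run. Aldh6a1 held 4 CCAAT boxes and 1 TEAD match, and Rfc1 held 2 CCAAT boxes and 1 cAMP element core. None of the 7 motifs was in all 4 promoters. Of the 122 members, 93 had a promoter in the table. The C-rich run was in 32 of them (34.4%), against 28.5% of 10201 promoters of all tested genes, and the CCAAT box in 32.3%, against 38.7%. The cAMP element core was in 21.5% of member promoters (31.5% of all), TEAD in 12.9% (12%), TATA in 6.45% (7.47%), E2F in 5.38% (8.24%) and AP-1 in 3.23% (5.07%). Median GC content was 65.7% in member promoters, against 61.0% in all. A match says only that these letters are in the window.

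As a check of the labels, Hnrnpk read 8.38, 8.34 and 9.94 with siHnrnpk, against 12.68, 12.03 and 12.47 with siControl in the hnRNPKKD set, so the last siHnrnpk array kept more of it. Cdkn1a differed from siControl by -2.64 with siP53, 0.31 with siLincp21 and 0.07 with siHnrnpk in the hnRNPKKD set, and by -2.07 with siP53 and 0.01 with siLincp21 in the lincP21KD set. The transcripts of p53 and of lincRNA-p21 are not analysed here, so the siLincp21 label has no check of its own target. Both siRNA sets used the same kind of control, a non-targeting pool, and no array of untransfected cells. Levels raised by each siRNA and levels lowered by the pool therefore cannot be told apart.

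In the hnRNPKKD set the members were 1.13 higher with siP53, 1.17 with siLincp21 and 1.01 with siHnrnpk by median, while the medians of all tested genes were within 0.02 of 0. The rule asks for the difference, so these values describe the choice. Each array gave much the same picture: the members' median lay between 0.99 and 1.29 above the control mean on the 9 knockdown arrays, against -0.09, 0.19 and -0.09 on the 3 control arrays. The second control array stood nearest to the knockdown arrays, with 110 of the 122 members above their own control mean. In 119 members all 9 knockdown arrays were above all 3 control arrays, which held for 5.82% of all tested genes; Adam12, Rassf6 and Pmp22 overlapped. The largest of the 3 differences was with siLincp21 in 50 members, with siP53 in 49 and with siHnrnpk in 23. The gap between the largest and smallest had a median of 0.46, and it was over 1 in 10 members. Just inside the threshold stood Med13l (0.702), Ankrd13a (0.703) and Adgra2 (0.709), and just outside it Vgll3 (0.699), Zfand3 (0.693) and Ptprf (0.693).

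**Figure D1:**
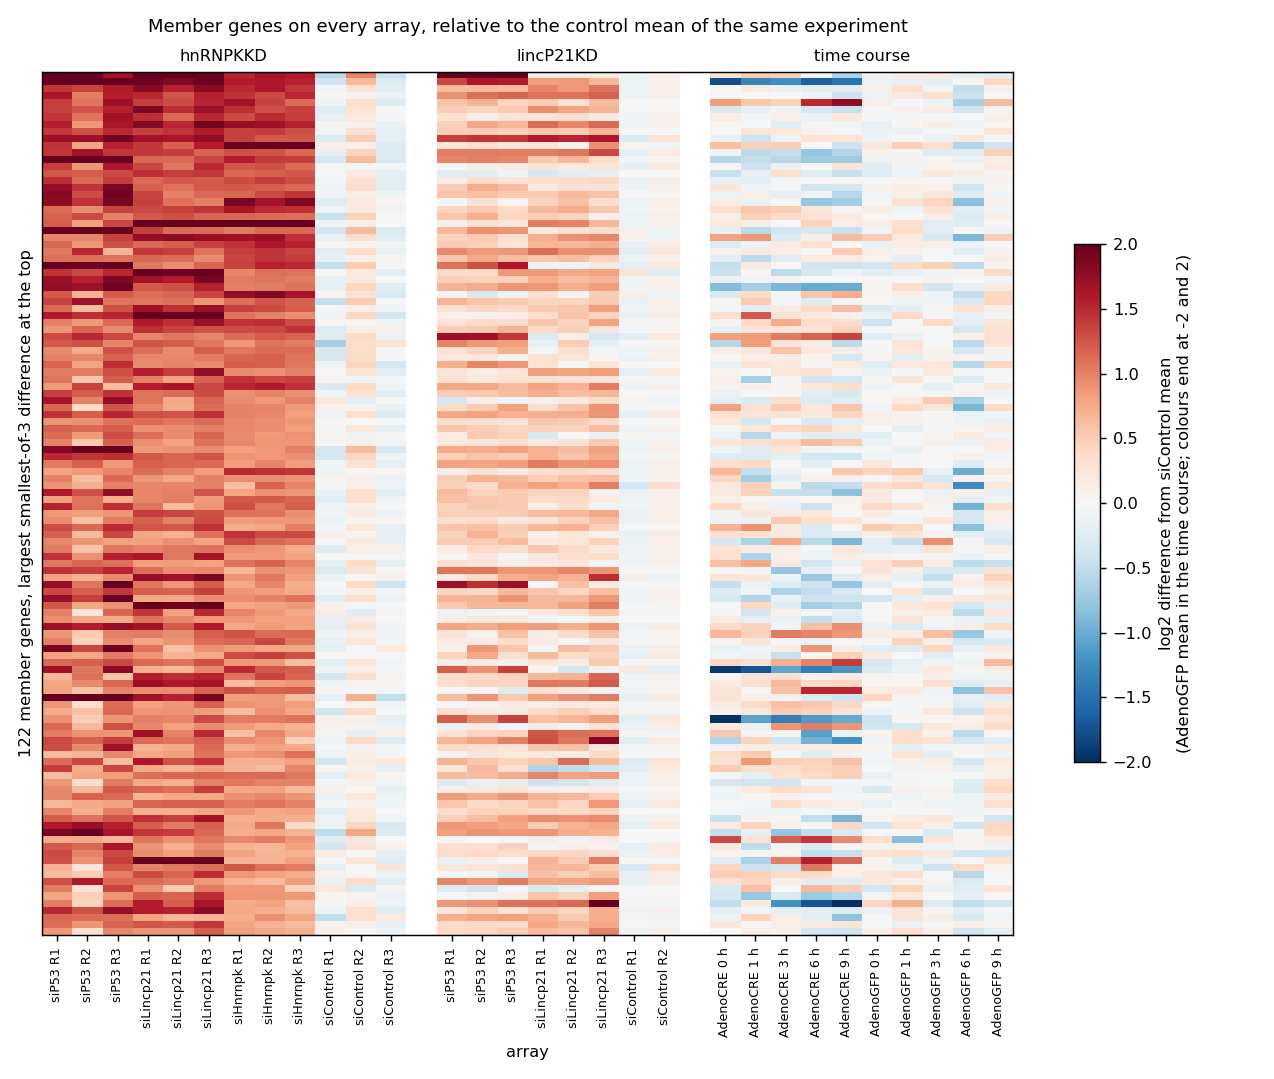
Each row is 1 of the 122 members and each column 1 of the 30 arrays; colour gives the log2 difference from the siControl mean of the same siRNA set, or from the AdenoGFP mean in the time course. The 9 knockdown columns of the hnRNPKKD set are red for nearly all members, as the rule asks of their means, the 6 knockdown columns of the lincP21KD set are mostly red but paler, and the time course columns show both colours.

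Per array, 12 members led the list by their smallest difference. Mfap5, a microfibril protein of elastic matrix, had 8.25, 8.72 and 7.71 with siP53, 8.36, 8.28 and 8.01 with siLincp21 and 7.56, 7.70 and 7.64 with siHnrnpk, against 5.48, 7.02 and 5.61 with siControl. Ednrb, the endothelin receptor type B, had 9.69, 9.30 and 9.66 with siP53, 9.13, 9.06 and 9.15 with siLincp21 and 8.77, 8.80 and 8.75 with siHnrnpk, against 6.79, 7.85 and 6.92 with siControl. Antxr2, a membrane receptor for anthrax toxin that binds matrix proteins, had 10.56, 10.58 and 10.78 with siP53, 10.53, 10.48 and 10.63 with siLincp21 and 10.22, 10.08 and 10.09 with siHnrnpk, against 8.56, 9.34 and 8.65 with siControl. In all 3 genes the second control array was the highest of the controls and still below every knockdown array. Tbc1d2b, a regulator of Rab GTPases, had 8.13, 8.05 and 8.29 with siP53, 8.52, 8.26 and 8.50 with siLincp21 and 8.20, 8.31 and 8.13 with siHnrnpk, against 6.64, 6.98 and 6.49 with siControl. Vamp3, a vesicle fusion protein of recycling endosomes, had 12.76, 12.62 and 12.86 with siP53, 12.72, 12.79 and 12.93 with siLincp21 and 12.72, 12.75 and 12.62 with siHnrnpk, against 11.28, 11.64 and 11.15 with siControl. Sumf1, which activates the sulfatases of the lysosome, had 10.16, 9.48 and 10.23 with siP53, 10.45, 10.12 and 10.51 with siLincp21 and 10.34, 10.29 and 10.15 with siHnrnpk, against 8.65, 8.68 and 8.47 with siControl. These 3 also had no overlap between knockdown and control arrays. Aldh6a1, a mitochondrial enzyme of valine breakdown, had 7.95, 7.37 and 7.91 with siP53, 7.84, 7.60 and 7.90 with siLincp21 and 7.79, 7.66 and 7.87 with siHnrnpk, against 6.38, 6.42 and 6.22 with siControl. Ampd3, which deaminates AMP, had 8.74, 8.43 and 9.09 with siP53, 8.75, 8.67 and 8.88 with siLincp21 and 9.04, 8.71 and 8.49 with siHnrnpk, against 7.28, 7.68 and 7.11 with siControl. Fut11, of the fucosyltransferase family, had 7.21, 7.09 and 7.39 with siP53, 7.73, 7.32 and 7.56 with siLincp21 and 7.31, 7.13 and 7.20 with siHnrnpk, against 5.58, 6.11 and 5.84 with siControl. For these enzymes all knockdown arrays were above all control arrays too. Rfc1, the large subunit of the clamp loader in DNA replication, had 9.10, 9.33 and 9.10 with siP53, 9.08, 9.06 and 8.84 with siLincp21 and 8.94, 8.92 and 8.82 with siHnrnpk, against 7.51, 8.12 and 7.39 with siControl. Ankrd29, an ankyrin repeat protein, had 6.30, 5.96 and 6.55 with siP53, 6.34, 6.02 and 6.37 with siLincp21 and 6.18, 6.36 and 6.25 with siHnrnpk, against 4.71, 5.06 and 4.85 with siControl. Prune2 had 8.86, 8.20 and 8.96 with siP53, 8.83, 8.61 and 8.98 with siLincp21 and 9.53, 9.68 and 9.52 with siHnrnpk, against 7.56, 7.52 and 7.15 with siControl. Prune2 was highest on the siHnrnpk arrays, and Rfc1 on the siP53 arrays.

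By role, the members fell into 8 groups, which were formed after the members were known. The secreted, matrix and matrix-binding group had 18 members with median differences of 1.37 with siP53, 1.17 with siLincp21 and 1.05 with siHnrnpk. It held Mfap5 and Antxr2, the laminin chains Lama2, Lamb2 and Lamc1, the small leucine-rich proteoglycans Fmod and Omd, cochlin (Coch), lubricin (Prg4), the cross-linking enzyme Loxl4, the metalloproteinase inhibitor Timp3 and the protease Adam12. Its secreted signalling proteins were Sfrp2, which binds Wnt ligands, Igfbp3, which binds insulin-like growth factors, Fstl1, Il17d and C1ql3, and it also held Mxra7.
The receptor, surface and signalling group had 28 members with medians of 1.08, 1.23 and 0.98 in the same order of siRNAs. Its receptors were Ednrb, the sphingosine-1-phosphate receptor S1pr3, the TGF-beta co-receptor Tgfbr3 and the adhesion receptor Adgra2, and Ece1 encodes the enzyme that makes active endothelin. Kinases and their regulators were Jak2, its negative regulator Socs2, Map3k3, Dyrk2, Prkx, Eef2k, the pseudokinase Trib3, the protein kinase A inhibitor Pkia, the cAMP phosphodiesterase Pde7b and Prr5l. The group also held beta-catenin (Ctnnb1), Dixdc1, Tgfb1i1, Rassf6, Ikbip, Rell1, and the membrane proteins L1cam, Pmp22, Cmtm6, Tspan14, Cldn12, Cd99l2 and Sgcb.
The cytoskeleton, adhesion and small GTPase group had 17 members with medians of 1.17, 1.16 and 1.00. They were the GTPases Rac1 and Diras2, the GTPase regulators Tbc1d2b, Farp2, Arhgap28 and Rabgap1l, the Cdc42 effector Cdc42ep2, the adhesion proteins Lims1, Lims2 and Tns3, the actin regulator Abi2, and Epb41l2, Septin10, Map2, Ktn1, Tacc1 and Itprid2.
The membrane traffic and lysosome group had 12 members with medians of 1.11, 1.27 and 0.93: Vamp3, Snapin, Lamp2, Fyco1, Txlna, C9orf72, Rffl, Arsk, Reep1, Emc1, Atad1 and Sumf1. The 15 metabolic and modifying enzymes had medians of 1.34, 1.22 and 1.19. They were Aldh6a1, Aldh1a3, which makes retinoic acid, Oxct1 of ketone use, the nucleotide enzymes Ampd3 and Ak3, the lipid genes Elovl5, Sptssa and Pctp, the glycosyltransferases Fut10, Fut11 and B3gnt9, the glycogen phosphatase subunit Ppp1r3d, Chac1, which degrades glutathione, Lactb and Zdhhc18.
The 7 transporters (Slc2a3 for glucose, Slc7a5 for large neutral amino acids, Slc1a6 for glutamate, Slc22a5 for carnitine, Slc41a2, Slc49a4 and Slc35d2) had medians of 0.90, 1.06 and 0.91. The 13 nuclear proteins had medians of 0.88, 0.98 and 0.93 and were Rfc1, Mier1, Maf, Prrx2, Arnt2, Tead1, Tcfl5, Zbtb10, Zfp449, Zfp458, Zfp667, Spopl and Med13l. The other 12 were Ankrd29, Prune2, 2510009E07Rik, Jpt2, Calml4, Scrn1, the noncoding RNA Rian, Tlcd3a, Fam114a2, Inafm2, Otud1 and Ankrd13a, with medians of 1.11, 1.23 and 1.28.

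In the lincP21KD set most members were again higher with siP53 and with siLincp21, at a smaller size. With siP53, 69 of the 122 passed the test as higher, against 7.01% of all tested genes, and 0 passed as lower, against 5.74% (limma, Benjamini-Hochberg adjusted p below 0.05 over all tested genes; 95 higher and 0 lower at an unadjusted p below 0.05). With siLincp21, 77 passed as higher, against 7.47% of all tested genes, and 1, Tcfl5, passed as lower at readings near the signal limit, against 4.39%. Values above 0 were found for 112 members with siP53, against 54.4% of all tested genes, and for 115 with siLincp21, against 52.6%. Median differences were 0.49 with siP53 and 0.51 with siLincp21, while all tested genes had medians of 0.02 and 0.01. Differences of at least 0.7 were seen in 30 members with siP53, against 1.33% of all tested genes, and in 37 with siLincp21, against 1.08%. All 3 siP53 arrays were above both control arrays in 101 members, against 25.1% of all tested genes, and all 3 siLincp21 arrays in 95, against 25.4%. The 2 comparisons share the 2 control arrays, so they are set side by side and not counted as separate evidence. One control array weighed on the counts: without the first, 40 members passed as higher with siP53 and 38 with siLincp21, with medians of 0.41 and 0.45. The calls over all tested genes fell as well, from 888 to 288 with siP53 and from 947 to 172 with siLincp21. The siHnrnpk difference has no second set of arrays.

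**Figure D2:**
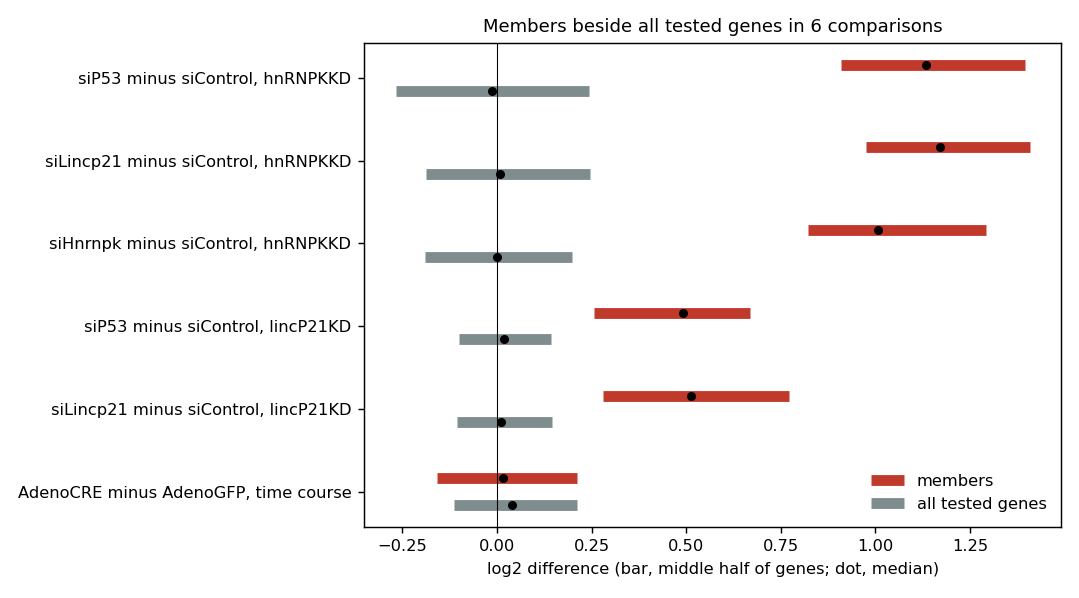
Bars run between the lower and the upper quartile of the genes and dots mark the median log2 difference, for the 122 members (red) above all 12674 tested genes (grey), in 6 comparisons. Member medians were 1.13, 1.17 and 1.01 in the hnRNPKKD set that chose them, 0.49 and 0.51 in the lincP21KD set, and 0.02 between the viruses.

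Of the 18 members of the secreted, matrix and matrix-binding group, 11 rose with siP53 (median 0.56) and 6 with siLincp21 (median 0.29), and none fell with either. Mfap5 read 7.07, 7.13 and 7.10 with siP53 and 5.01, 5.04 and 5.04 with siLincp21, against 4.79 and 4.99 with siControl. Fmod read 7.10, 6.87 and 7.10 with siP53 and 5.36, 5.97 and 5.58 with siLincp21, against 5.37 and 5.41 with siControl. Coch read 6.86, 6.82 and 6.55 with siP53 and 4.85, 5.25 and 4.79 with siLincp21, against 4.91 and 5.36 with siControl. In these 3 genes every siP53 array was above all others, and the siLincp21 arrays lay nearer to the controls. Mfap5 was 2.21 ± 0.08 (SE, adjusted p = 6.38e-07) higher with siP53, 4.63-fold, and 0.14 ± 0.08 (SE, adjusted p = 0.307) with siLincp21. The siP53 rise was 1.63 ± 0.15 (SE, adjusted p = 0.00015) in Fmod and 1.61 ± 0.17 (SE, adjusted p = 0.000252) in Coch. Other probe sets gave smaller siP53 values, 0.22 to 0.79 for those of Fmod above the signal limit and 0.78 for that of Mfap5. In the hnRNPKKD set the other Fmod probe sets were only 0.11 to 0.30 higher with siLincp21 and siHnrnpk, and that of Mfap5 was 0.57 higher with siHnrnpk. Sfrp2 read 8.32, 8.05 and 8.47 with siP53 and 7.69, 7.79 and 7.94 with siLincp21, against 6.92 and 7.30 with siControl. Igfbp3 read 6.88, 6.60 and 7.06 with siP53 and 5.75, 5.31 and 5.64 with siLincp21, against 5.87 and 5.52 with siControl. Sfrp2 was separated from the controls with both siRNAs, 1.17 ± 0.14 (SE, adjusted p = 0.000665) with siP53 and 0.70 ± 0.14 (SE, adjusted p = 0.013) with siLincp21, and Igfbp3 with siP53, 1.15 ± 0.17 (SE, adjusted p = 0.00163), while its siLincp21 arrays overlapped the controls. Antxr2 read 9.45, 9.50 and 9.48 with siP53 and 9.65, 9.59 and 9.68 with siLincp21, against 7.79 and 8.36 with siControl. Both knockdowns were above both controls, by 1.41 ± 0.14 (SE, adjusted p = 0.000166) with siP53 and 1.57 ± 0.14 (SE, adjusted p = 0.000388) with siLincp21, the largest siLincp21 rise of any member. The controls of Antxr2 themselves differed by more than 0.5. Omd rose with siP53 (0.82), Adam12 with siP53 and siLincp21 (0.67 and 0.92), Lamc1 likewise (0.48 and 0.68), and so did Lamb2 (0.56 and 0.36) and Fstl1 (0.55 and 0.67). Timp3, Lama2, Loxl4, Prg4, C1ql3, Il17d and Mxra7 passed neither test, with values from -0.16 to 0.51 with siP53 and from -0.50 to 0.36 with siLincp21.

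Receptors and signalling proteins passed in 17 of 28 with siP53 (median 0.47) and 21 with siLincp21 (median 0.63). Ednrb read 7.87, 8.15 and 8.11 with siP53 and 7.37, 7.39 and 7.19 with siLincp21, against 6.43 and 6.63 with siControl. Its 3 groups did not overlap, and it rose by 1.51 ± 0.11 (SE, adjusted p = 3.46e-05) with siP53, 2.86-fold, and by 0.79 ± 0.11 (SE, adjusted p = 0.00261) with siLincp21. Ece1 was 0.85 ± 0.14 (SE, adjusted p = 0.0052) higher with siLincp21 and 0.41 ± 0.14 (SE, adjusted p = 0.0888) with siP53. Trib3, a pseudokinase induced by amino acid shortage, read 8.55, 8.61 and 8.78 with siP53 and 8.78, 8.84 and 9.78 with siLincp21, against 7.72 and 7.66 with siControl. Cmtm6, a membrane protein that stabilises PD-L1, read 7.85, 7.96 and 7.95 with siP53 and 8.58, 8.56 and 8.74 with siLincp21, against 7.49 and 7.54 with siControl. The third siLincp21 array was the highest for Trib3, and in both genes no knockdown array fell to the control level. Trib3 rose by 1.44 ± 0.24 (SE, adjusted p = 0.00567) with siLincp21 and 0.95 ± 0.24 (SE, adjusted p = 0.0293) with siP53, but without the first control array the siLincp21 value had an adjusted p of 0.0554 (limma). Tgfbr3 rose by 0.77 and 0.80 with siP53 and siLincp21, S1pr3 by 0.41 and 0.68, Adgra2 by 0.78 and 0.65, Ctnnb1 by 0.42 and 0.42, and Prr5l by 0.78 and 0.81. Socs2, Dyrk2, Eef2k and L1cam rose with siP53, by 0.54 to 0.85, and had siLincp21 values of 0.14 to 0.33 that did not pass. Jak2, Prkx, Pkia, Pde7b, Ikbip, Cldn12 and Sgcb rose with siLincp21, by 0.44 to 0.99, and had siP53 values of 0.08 to 0.47 that did not pass. Whether the siRNAs differed was tested directly, as given further on.

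**Figure D3:**
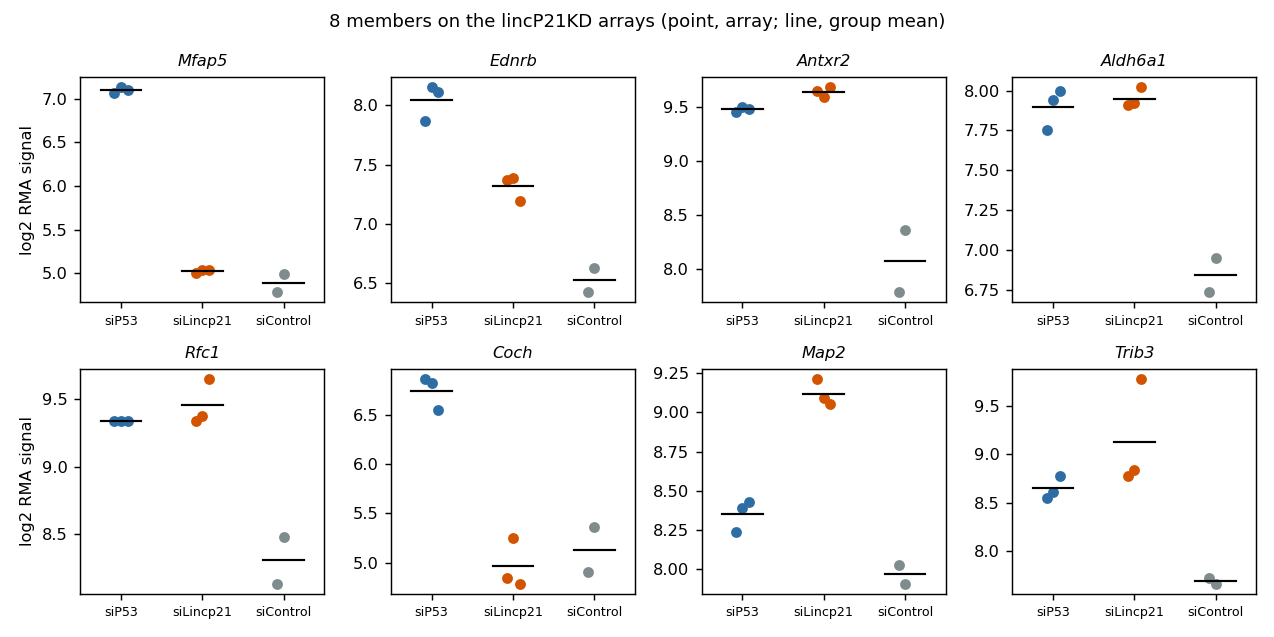
Points are arrays and lines group means of log2 RMA signal for 8 members in the lincP21KD set, with siP53, siLincp21 and siControl from left to right and a separate scale for each gene. Mfap5 and Coch stand highest on the siP53 arrays, while Antxr2, Aldh6a1 and Rfc1 stand above the controls with both siRNAs.

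Among cytoskeleton and GTPase proteins, 12 of 17 rose with siP53 and 12 with siLincp21, with a median of 0.56 in each. Map2, a microtubule-associated protein best known from neurons, read 8.24, 8.39 and 8.43 with siP53 and 9.21, 9.09 and 9.05 with siLincp21, against 8.03 and 7.91 with siControl. Tbc1d2b read 8.75, 8.76 and 8.76 with siP53 and 9.09, 8.98 and 9.21 with siLincp21, against 8.01 and 8.22 with siControl. Both rose with each siRNA and were highest on the siLincp21 arrays, Map2 by 1.15 ± 0.09 (SE, adjusted p = 0.000383) and Tbc1d2b by 0.98 ± 0.09 (SE, adjusted p = 0.000532). Tns3, Epb41l2, Abi2, Itprid2, Ktn1, Farp2 and Arhgap28 also rose with each siRNA, with values between 0.51 and 0.87. Their other probe sets above the signal limit ranged from -0.16 (Tns3 with siLincp21) to 0.87 (Epb41l2 with siP53). Rac1 rose with siP53 (0.54) and was 0.31 higher with siLincp21, which did not pass. In the traffic and lysosome group 6 of 12 rose with siP53 (median 0.43) and 8 with siLincp21 (median 0.54). Sumf1 read 9.60, 9.89 and 9.79 with siP53 and 10.23, 10.08 and 10.26 with siLincp21, against 9.02 and 9.21 with siControl. Vamp3 read 12.62, 12.63 and 12.61 with siP53 and 12.69, 12.64 and 12.81 with siLincp21, against 12.12 and 12.14 with siControl. Neither gene's knockdown arrays overlapped its controls, and the siLincp21 rise was 1.07 ± 0.11 (SE, adjusted p = 0.000653) for Sumf1 and 0.59 ± 0.08 (SE, adjusted p = 0.00209) for Vamp3. Snapin (0.88 with siP53 and 0.99 with siLincp21), Txlna (0.81 and 0.62), Fyco1 (0.55 and 0.61) and Atad1 (0.32 and 0.47) also rose with each. Other probe sets above the signal limit stood at 0.05 and 0.12 for Snapin and -0.08 and -0.05 for Fyco1. Those of Atad1 stood at 0.10 and 0.27 and at -0.34 and 0.09. Those of Txlna followed, at 0.71 and 0.63 and at 0.80 and 0.82.

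Of the 15 enzymes, 11 rose with siP53 (median 0.52) and 12 with siLincp21 (median 0.67). Aldh6a1 read 7.75, 7.94 and 8.0 with siP53 and 7.91, 7.92 and 8.02 with siLincp21, against 6.74 and 6.95 with siControl. Chac1 read 9.69, 9.83 and 10.04 with siP53 and 10.30, 10.10 and 10.87 with siLincp21, against 8.82 and 9.23 with siControl. Both stood above the controls on every knockdown array. Aldh6a1 rose about equally, by 1.06 ± 0.10 (SE, adjusted p = 0.00015) with siP53 and 1.11 ± 0.10 (SE, adjusted p = 0.000421) with siLincp21. Chac1 rose by 0.82 ± 0.21 (SE, adjusted p = 0.0284) with siP53 and 1.40 ± 0.21 (SE, adjusted p = 0.00325) with siLincp21, and the siLincp21 value had an adjusted p of 0.0512 without the first control array (limma). Ampd3 read 8.61, 8.74 and 8.49 with siP53 and 8.57, 8.33 and 8.69 with siLincp21, against 8.06 and 8.07 with siControl. Fut11 read 7.93, 7.87 and 7.96 with siP53 and 8.37, 8.23 and 8.12 with siLincp21, against 7.40 and 7.48 with siControl. Knockdown and control arrays did not overlap in either, with siP53 rises of 0.55 and 0.48 and siLincp21 rises of 0.47 and 0.80. Fut10 (1.0 and 0.92), B3gnt9 (0.62 and 0.83), Elovl5 (0.98 and 0.51), Oxct1 (0.52 and 0.67) and Zdhhc18 (0.45 and 0.65) rose with siP53 and with siLincp21. Other probe sets of Fut10 stood at 0.24 and -0.01 and at 0.05 and -0.08, and that of Zdhhc18 at 0.21 and 0.17. That of Elovl5 stood at 1.01 and 0.41, and those of Oxct1 at 0.26 to 0.52 and 0.37 to 0.67. Aldh1a3 (0.08 with siLincp21) and Lactb (0.01 and 0.18) did not pass with either siRNA.

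Transporters passed in 1 of 7 with siP53, Slc7a5 (0.64), and in 4 with siLincp21: Slc7a5 (0.94), Slc2a3 (0.80), Slc1a6 (0.77) and Slc22a5 (0.41). Nuclear proteins passed as higher in 5 of 13 with siP53 and in 8 with siLincp21. Rfc1 read 9.34, 9.34 and 9.34 with siP53 and 9.34, 9.38 and 9.65 with siLincp21, against 8.13 and 8.48 with siControl, with no overlap between knockdowns and controls and rises of 1.03 ± 0.12 (SE, adjusted p = 0.00047) with siP53 and 1.15 ± 0.12 (SE, adjusted p = 0.000833) with siLincp21. The homeobox factor Prrx2 rose by 0.80 and 0.94, Med13l by 0.43 and 0.72, and Tead1, the DNA-binding partner of YAP, by 0.37 and 0.38. Tcfl5 was the 1 member called lower. It read 4.18, 4.29 and 4.26 with siP53 and 4.03, 4.07 and 4.20 with siLincp21, against 4.34 and 4.54 with siControl, where all siLincp21 arrays were below both controls, by -0.33 ± 0.09 (SE, adjusted p = 0.0398). All 8 readings lay below the signal limit of 4.54 that served as the filter on the mean of all 30 arrays, which was so for no other member, and Tcfl5 passed the filter through the other sets. Its call was lost in 10 of 16 other settings (limma adjusted p = 0.051 to 0.294). In the hnRNPKKD set Tcfl5 had been 0.75, 0.83 and 1.01 higher with siP53, siLincp21 and siHnrnpk. Among the other 12, Calml4, a calmodulin-like protein, read 6.30, 6.49 and 6.83 with siP53 and 5.14, 5.15 and 5.40 with siLincp21, against 5.03 and 5.39 with siControl. Its siP53 arrays stood apart, 1.33 ± 0.16 (SE, adjusted p = 0.000607) higher, and its siLincp21 arrays overlapped the controls. Of the 12 members that led the hnRNPKKD list, 10 rose with siP53 and 9 with siLincp21. Ankrd29 read 5.48, 5.31 and 5.46 with siP53 and 5.44, 5.51 and 5.37 with siLincp21, against 5.11 and 5.26 with siControl. Prune2 read 9.92, 10.01 and 9.91 with siP53 and 9.96, 9.77 and 10.60 with siLincp21, against 9.77 and 9.58 with siControl. Their knockdown arrays were on average above the controls by 0.23 to 0.43, and these differences did not pass the test.

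Set directly against each other in the lincP21KD set, siP53 and siLincp21 differed for 35 members (limma). siP53 was higher for 18, against 9.22% of all tested genes, and lower for 17, against 11.2%. The shares of the members, 14.8% and 13.9%, were not far from those of all genes. With each array centred on its median, siP53 was higher for 23 members and lower for 14. The calls over all tested genes moved in the same direction, from 1168 higher and 1422 lower to 1834 and 1019. The 18 were Mfap5 (2.07 ± 0.07 (SE, adjusted p = 2.82e-07)), Coch (1.78), Fmod (1.39), Calml4 (1.31), Igfbp3 (1.28), Prg4 (0.89), Rian (0.84), Ednrb (0.73), L1cam (0.69), Lamp2, Omd, Sfrp2, Elovl5, Lama2, Dyrk2, Septin10, Sptssa and Spopl. The secreted, matrix and matrix-binding group, which holds 18 of the 122 members, supplied 8 of these 18 and 0 of the 17. That group was formed after the members were known, and no such count was made for all tested genes. Prg4, the lubricating proteoglycan of joints, read 6.19, 6.61 and 6.26 with siP53 and 5.35, 5.45 and 5.59 with siLincp21, against 5.75 and 6.17 with siControl, so the siP53 arrays were above and the siLincp21 arrays below both controls. Rian, an imprinted noncoding RNA, read 8.23, 8.10 and 8.07 with siP53 and 7.09, 7.73 and 7.05 with siLincp21, against 7.20 and 7.27 with siControl, and its siP53 arrays stood above all others.

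The 17 that were lower with siP53 than with siLincp21 included signalling, enzyme and traffic genes. Ppp1r3d read 6.05, 6.28 and 6.17 with siP53 and 6.88, 6.69 and 7.20 with siLincp21, against 6.22 and 6.14 with siControl. Inafm2 read 7.34, 7.42 and 7.07 with siP53 and 7.94, 7.82 and 7.95 with siLincp21, against 7.19 and 7.52 with siControl. C9orf72, a regulator of lysosome and autophagy traffic, read 7.66, 7.57 and 7.68 with siP53 and 8.23, 8.19 and 8.24 with siLincp21, against 7.21 and 7.59 with siControl. In these 3 the siLincp21 arrays stood above both other groups, and siP53 was -0.76, -0.63 and -0.59 relative to siLincp21. Jak2, the kinase of cytokine receptors, read 9.03, 9.10 and 9.13 with siP53 and 9.56, 9.46 and 9.85 with siLincp21, against 8.99 and 9.03 with siControl. Pctp, which carries phosphatidylcholine, read 5.69, 5.78 and 5.56 with siP53 and 5.97, 6.17 and 6.22 with siLincp21, against 5.32 and 5.17 with siControl. The siP53 minus siLincp21 difference was -0.54 ± 0.10 (SE, adjusted p = 0.0041) in Jak2 and -0.44 ± 0.09 (SE, adjusted p = 0.00767) in Pctp. Map2 (-0.76), Cmtm6 (-0.71), 2510009E07Rik, Ece1, Sumf1, Diras2, Rffl, Ankrd13a, Pkia, Tbc1d2b, Lims2 and Fut11 completed them. With the mean of all probe sets of the gene, Pctp and 2510009E07Rik did not pass. In the hnRNPKKD set, whose siP53 and siLincp21 means the rule had used, 15 of the 18 and 16 of the 17 had the same sign. Such a count was not made for all tested genes, so it does not set the members apart. Over the 122 members the 2 sets' siP53 minus siLincp21 differences correlated with r = 0.55, against 0.65 over all tested genes, as a description across genes that share arrays and are not independent.

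**Figure D4:**
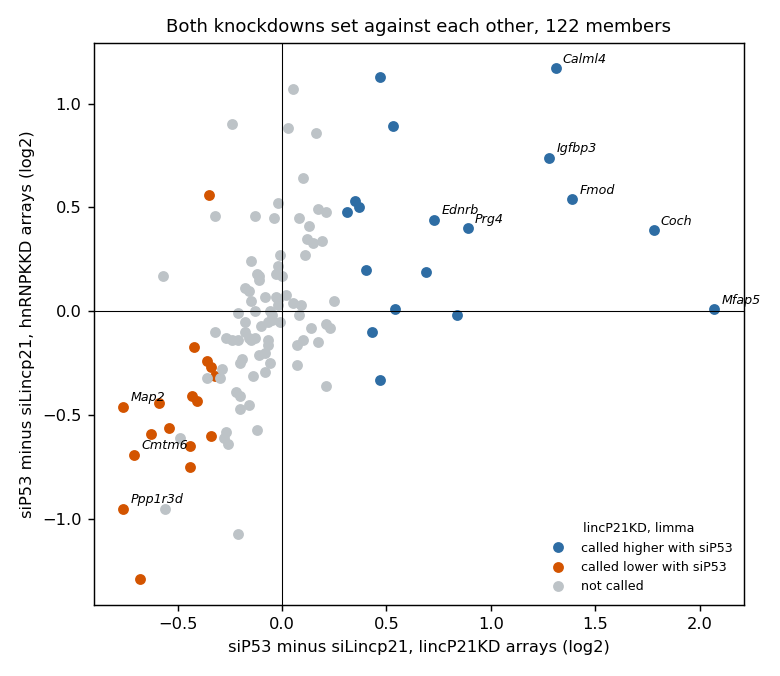
Each point is 1 of the 122 members, with the siP53 minus siLincp21 log2 difference on the lincP21KD arrays on the horizontal axis and on the hnRNPKKD arrays on the vertical axis. Mfap5 lies far to the right (2.07) and near 0 on the vertical axis, while Coch, Fmod, Calml4 and Igfbp3 lie to the upper right and Cmtm6 and Ppp1r3d to the lower left.

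Without siRNA, in the time course, the members did not move together. AdenoCRE cells, with p53 restored, were higher than AdenoGFP cells for 17 members, against 12.9% of all tested genes, and lower for 13, against 6.24% (limma with time as a block). The difference was above 0 for 64 of the 122, against 57.1% of all tested genes, with a median of 0.02, against 0.04. AdenoCRE was higher at all 5 times for 25 members, against 21.1% of all tested genes, and lower at all 5 for 16, against 11.1%. These counts depended on the scaling, the arrays and the fit. With quantile scaling 11 members were higher and 19 lower, against 1250 and 1179 of all tested genes. With each array centred on its median 9 were higher and 19 lower, against 1116 and 1351. The balance of the members' calls thus turned over, while the calls over all tested genes shifted in the same direction, from 1636 higher and 791 lower. The median of all tested genes was -0.02 and -0.07 in these settings, and 56 and 52 members were above 0. Without the time block 8 members were higher and 7 lower, against 949 and 355 of all tested genes. With 1 time left out 9 to 11 were higher and 7 to 12 lower, against 817 to 1397 and 329 to 658. Of the genes given per array below, Loxl4, Lactb, Prr5l, Trib3 and Chac1 did not pass without the time block (limma adjusted p = 0.0502, 0.148, 0.116, 0.118 and 0.228). Ampd3, Slc41a2 and Jak2 did not pass without the 9 h pair (limma adjusted p = 0.0555, 0.0729 and 0.0521), nor Chac1 without the 0, 3, 6 or 9 h pair (0.0783 to 0.109). Prr5l lost its call in 8 of 13 settings, both scalings and array weights among them (limma adjusted p = 0.0606 to 0.116). There is no array of cells with Cre and without p53, so effects of Cre and of p53 cannot be told apart.

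Of the receptor, surface and signalling group 5 of 28 were lower and 3 higher with AdenoCRE, and of the secreted, matrix and matrix-binding group 2 of 18 were lower and 4 higher. Ednrb read 5.75, 6.20, 6.31, 5.90 and 6.03 with AdenoCRE, against 7.42, 7.37, 7.33, 7.58 and 7.95 with AdenoGFP, in order of time. Igfbp3 read 6.89, 7.10, 7.76, 7.44 and 7.66 with AdenoCRE, against 8.55, 8.69, 9.02, 8.85 and 8.99 with AdenoGFP. Sfrp2 read 6.35, 7.38, 7.06, 7.32 and 7.44 with AdenoCRE, against 8.04, 8.51, 8.48, 8.54 and 8.67 with AdenoGFP. At each of the 5 times the AdenoCRE value was below the AdenoGFP value, and the differences were -1.49 ± 0.14 (SE, adjusted p = 0.000712), -1.45 ± 0.09 (SE, adjusted p = 0.000153) and -1.34 ± 0.10 (SE, adjusted p = 0.000302). These 3 genes had each risen with siP53 in the lincP21KD set. Tgfbr3, the co-receptor, read 8.82, 9.02, 8.78, 8.68 and 8.70 with AdenoCRE, against 9.75, 10.03, 9.33, 9.52 and 9.85 with AdenoGFP. Elovl5, a fatty acid elongase, read 11.12, 11.23, 11.13, 10.98 and 10.98 with AdenoCRE, against 11.60, 11.76, 11.75, 11.55 and 11.80 with AdenoGFP. Jak2 read 7.90, 7.48, 7.95, 7.50 and 7.67 with AdenoCRE, against 8.15, 8.45, 8.24, 8.07 and 8.29 with AdenoGFP. The virus effect was -0.89 ± 0.10 (SE, adjusted p = 0.00168) in Tgfbr3, -0.60 ± 0.08 (SE, adjusted p = 0.00336) in Elovl5 and -0.54 ± 0.12 (SE, adjusted p = 0.0166) in Jak2, and AdenoCRE was the lower at all 5 times in each. Trib3 read 9.30, 10.0, 8.61, 8.08 and 7.81 with AdenoCRE, against 10.21, 10.53, 9.53, 9.31 and 9.43 with AdenoGFP. Chac1 read 9.90, 10.95, 10.10, 9.55 and 9.29 with AdenoCRE, against 10.45, 10.84, 10.77, 10.17 and 10.26 with AdenoGFP. Both had their highest value at 1 h in each virus, and AdenoCRE was lower by -1.04 ± 0.15 (SE, adjusted p = 0.00337) in Trib3. In Chac1 it was lower at 4 of 5 times, by -0.54 ± 0.14 (SE, adjusted p = 0.0339). Rfc1 (-0.49), Pmp22 (-0.44), Slc7a5 (-0.35), Oxct1 (-0.28) and Arhgap28 (-0.35) completed the 13.

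The 17 members that were higher with AdenoCRE included the matrix genes Coch and Loxl4. Coch read 8.86, 8.89, 9.08, 9.20 and 9.39 with AdenoCRE, against 7.79, 7.91, 8.0, 8.14 and 8.33 with AdenoGFP. Aldh1a3 read 8.70, 7.65, 8.59, 8.79 and 8.32 with AdenoCRE, against 7.73, 6.55, 7.65, 7.43 and 7.54 with AdenoGFP. Loxl4 read 7.90, 7.83, 8.22, 8.48 and 8.89 with AdenoCRE, against 7.15, 7.32, 7.42, 7.40 and 8.14 with AdenoGFP. AdenoCRE was above AdenoGFP at all 5 times, by 1.05 ± 0.07 (SE, adjusted p = 0.000234), 1.03 ± 0.10 (SE, adjusted p = 0.000983) and 0.78 ± 0.10 (SE, adjusted p = 0.00232). Coch had also risen with siP53 in the lincP21KD set. Ampd3 read 7.91, 7.62, 7.52, 8.57 and 8.85 with AdenoCRE, against 7.21, 7.08, 6.96, 6.41 and 7.70 with AdenoGFP. Slc41a2, a magnesium transporter, read 9.28, 9.08, 9.66, 9.60 and 9.49 with AdenoCRE, against 8.74, 8.77, 9.22, 7.87 and 8.52 with AdenoGFP. Lactb read 8.52, 8.17, 9.20, 9.33 and 9.20 with AdenoCRE, against 7.93, 8.01, 8.52, 8.45 and 8.67 with AdenoGFP. The AdenoGFP array at 6 h was low for Ampd3 and Slc41a2. It was also low over all tested genes, with a median signal of 8.02, against 8.20 to 8.32 on the other AdenoGFP arrays. On it 33 of the 122 members were above their AdenoGFP mean. The virus effects in Ampd3, Slc41a2 and Lactb were 1.02 ± 0.22 (SE, adjusted p = 0.0174), 0.80 ± 0.19 (SE, adjusted p = 0.0245) and 0.57 ± 0.11 (SE, adjusted p = 0.0114). Slc1a6 read 9.23, 9.78, 9.40, 9.37 and 9.50 with AdenoCRE, against 8.86, 9.02, 9.04, 8.58 and 9.12 with AdenoGFP. Prr5l read 6.96, 7.02, 6.52, 7.15 and 7.48 with AdenoCRE, against 6.44, 6.30, 6.50, 6.67 and 6.95 with AdenoGFP. Their virus effects were 0.53 and 0.46, and all AdenoCRE arrays of Slc1a6 were above the AdenoGFP arrays at the same time. Slc49a4, Lims2, Prg4, Mxra7, Cmtm6, Prkx, Zdhhc18, Fyco1 and Tns3 also passed, with differences from 0.28 to 0.42.

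**Figure D5:**
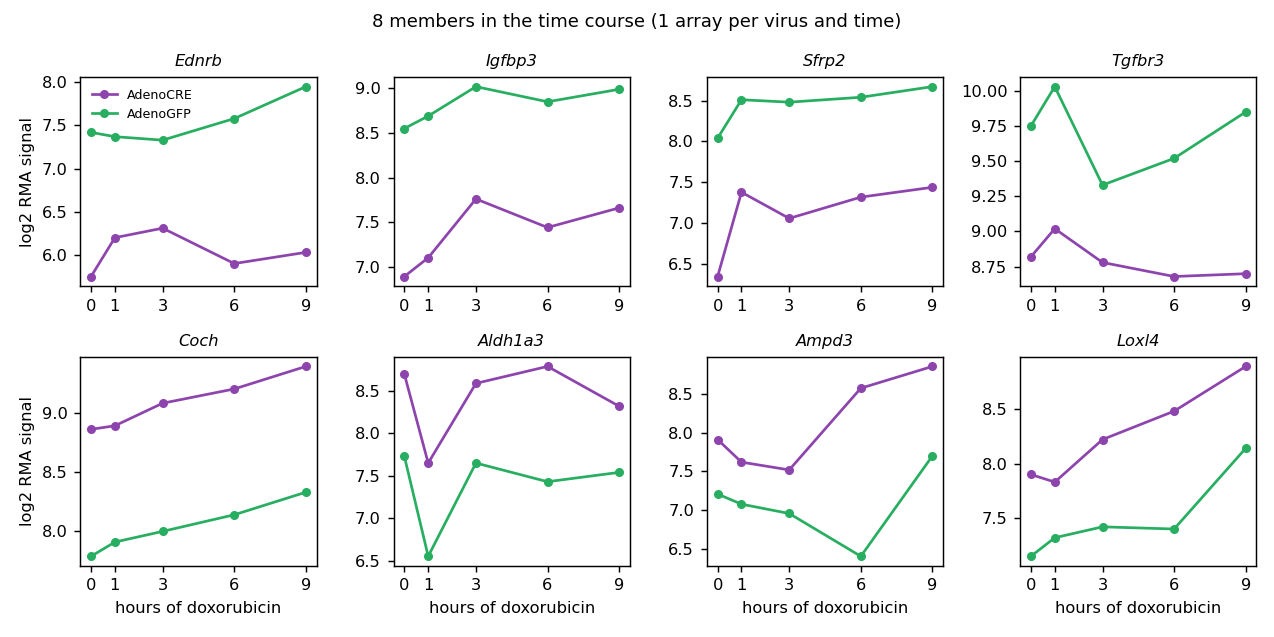
Lines join the log2 RMA signal of 1 array per time after 0, 1, 3, 6 and 9 h of doxorubicin, for AdenoCRE (purple) and AdenoGFP (green), with a separate scale for each of 8 members. Ednrb, Igfbp3, Sfrp2 and Tgfbr3 lie lower with AdenoCRE at every time, and Coch, Aldh1a3, Ampd3 and Loxl4 lie higher.

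Few members, and few of all tested genes, were called as changing with the hours of doxorubicin. In AdenoCRE cells 3 members (2.46%) rose per hour, against 3.95% of all tested genes, and 4 (3.28%) fell, against 1.45% (limma). The rising ones were Loxl4 (0.12 log2 per hour), Ikbip (0.08) and Coch (0.06), and the falling ones Trib3 (-0.22), Eef2k (-0.12), Mfap5 (-0.11) and Adam12 (-0.08). Mfap5 read 9.34, 9.60, 9.57, 9.05 and 8.47 with AdenoCRE, against 9.16, 9.26, 9.27, 8.90 and 8.86 with AdenoGFP. Adam12 read 10.90, 10.73, 10.71, 10.33 and 10.20 with AdenoCRE, against 11.03, 10.67, 10.56, 10.45 and 10.38 with AdenoGFP. Mfap5 was lowest at 9 h in both viruses, and so was Adam12. Ikbip, which interacts with the NF-kB pathway, read 10.30, 10.09, 10.48, 10.68 and 10.93 with AdenoCRE, against 10.03, 10.15, 10.34, 10.63 and 10.43 with AdenoGFP. Eef2k, the kinase that slows protein elongation, read 9.40, 9.68, 8.78, 8.76 and 8.40 with AdenoCRE, against 9.42, 9.26, 9.11, 9.30 and 9.03 with AdenoGFP. The AdenoCRE arrays at 9 h were the highest for Ikbip and the lowest for Eef2k. Each of these 7 genes lost its call in some of the 13 other settings: Coch in 11, Adam12 in 9, Ikbip in 8, Loxl4, Eef2k and Mfap5 in 5 each and Trib3 in 4. With time on a log scale 1 member rose and 1 fell, and the riser was none of the 3 named. With 1 time left out 0 to 2 rose and 0 to 4 fell, and without the 9 h pair the 2 that rose and the 2 that fell were none of the 7. In AdenoGFP cells 0 members rose, against 0.00789% of all tested genes, and 0 fell (limma; 9 higher and 8 lower at an unadjusted p below 0.05). For the difference in slope between the viruses 0 were higher, against 0.181% of all tested genes, and 0 lower (limma; 1 and 4 at an unadjusted p below 0.05). Each slope rests on 5 arrays.

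The pathway and cell type lists held 370 distinct tested genes, of which 5 were members (1.35%), against 0.963% of all tested genes, and 20 of the 24 lists held none. The p53-activated targets held 0 members among 37 tested genes, but a gene that is lower with siP53 cannot meet the rule. In the lincP21KD set 29 of the 37 fell and 1 rose with siP53 (median -1.12), while 5 fell and 2 rose with siLincp21 (median -0.03). The list for the unfolded protein response and amino acid stress held the members Chac1 and Trib3. In it, 11 of 20 tested genes rose and 0 fell with siLincp21 (median 0.37), and 6 rose and 1 fell with siP53 (median 0.20). The matrix list held Mfap5, the vasoactive list Ednrb and the neural list Map2. Of 23 tested matrix genes, 8 rose and 1 fell with siP53 and 6 rose and 1 fell with siLincp21. Of 12 tested vasoactive genes, 2 rose and 3 fell with siP53, and 3 rose and 1 fell with siLincp21.

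The cells carried fibroblast genes throughout: 12 of 12 fibroblast markers were above the signal limit. Their summed log2 level was 142.64 to 144.45 with siP53 and 142.48 to 143.41 with siLincp21, against 139.55 to 140.53 with siControl in the lincP21KD set. In the hnRNPKKD set it was 139.05 to 139.20 with siP53, 136.42 to 137.49 with siLincp21 and 133.17 to 134.00 with siHnrnpk, against 133.14 to 134.52 with siControl, so it was higher with siP53 and siLincp21 and overlapped the controls with siHnrnpk. In the time course it was 138.66 to 142.18 with AdenoCRE, against 144.89 to 147.36 with AdenoGFP. Of 11 neural markers 9 were above the limit. In the lincP21KD set their sum was 62.34 to 63.11 with siP53 and 62.80 to 63.72 with siLincp21, against 60.94 to 61.32 with siControl. Without the member Map2 it was 54.10 to 54.68 and 53.71 to 54.51, against 53.03 to 53.29. Tubb3, another neural marker, rose with siP53 (0.88) and siLincp21 (1.02). Without Map2 and Tubb3 the sum was 46.93 to 47.68 with siP53 and 46.39 to 47.09 with siLincp21, against 46.63 to 47.17 with siControl, so the groups overlapped. In the hnRNPKKD set the sum of all 9 was 58.52 to 58.99 with siP53, 60.10 to 60.21 with siLincp21 and 59.74 to 60.69 with siHnrnpk, against 57.85 to 58.22. Without Map2 and Tubb3 it was 44.76 to 44.95, 45.46 to 45.90 and 44.91 to 45.53 there, against 45.45 to 46.05, so only siP53 stood apart, below siControl. Of 9 macrophage markers 6 were above the limit, and their sum was lower with siP53: 35.63 to 36.16, against 38.05 to 38.19 with siControl in the lincP21KD set, and 31.11 to 33.90, against 37.08 to 37.23 in the hnRNPKKD set. With siLincp21 it was 37.53 to 38.10 in the lincP21KD set and 36.24 to 37.34 in the hnRNPKKD set, where siHnrnpk had 35.52 to 36.41. Of 9 epithelial markers 6 were above the limit, with sums of 40.71 to 41.26 with siP53 and 40.02 to 40.76 with siLincp21, against 41.74 to 41.93 with siControl in the lincP21KD set. In the hnRNPKKD set their sum was 35.76 to 36.52 with siP53, 40.98 to 41.19 with siLincp21 and 40.43 to 42.08 with siHnrnpk, against 41.62 to 42.53 with siControl. In the lincP21KD set the 5 skeletal muscle markers above the limit summed to 28.80 to 29.89 with siP53 and 28.09 to 28.26 with siLincp21, against 29.24 to 29.43 with siControl. The 4 adipocyte markers summed to 28.29 to 28.79 with siP53 and 26.91 to 28.03 with siLincp21, against 26.79 to 27.16 with siControl. Endothelial and chondrocyte marker sums with each siRNA overlapped those with siControl in that set. In the hnRNPKKD set chondrocyte sums were 39.79 to 41.09 with siHnrnpk and 38.70 to 39.78 with siLincp21, above 37.34 to 38.46 with siControl. Endothelial sums there were 10.95 to 11.41 with siHnrnpk, above 9.85 to 10.77 with siControl. Skeletal muscle sums there were 29.26 to 29.73 with siHnrnpk, below 29.87 to 30.65 with siControl. The other siRNAs overlapped siControl in these 3 lists. The part of these cell type markers in the members' values was not tested.

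The members were on the whole longer genes, spread over the genome. Median gene length was 36457 bp over the 122, against 22863 bp over 12616 tested genes with a length, and the lower and upper quartiles were 19428 and 77692 bp, against 9608 and 55487 bp. Chromosomes 2 and 10 held 11 members each, among 1012 and 616 tested genes. Chromosomes 5 and 11 held 10 each, among 816 and 1033, and chromosome X held 5 among 401. Of the 73 members with other probe sets above the signal limit, those 128 probe sets were above 0 with all 3 siRNAs in 111 and at least 0.7 in 43, with a median smallest difference of 0.48. In the lincP21KD set 114 of them were above 0 with siP53 and 104 with siLincp21. Calls rest on the chosen probe set of each gene, and some other probe sets did not follow there. That of Tead1, for example, stood at -0.08 with siP53 and -0.13 with siLincp21. Some members had other probe sets that did not follow the rule in the hnRNPKKD set. One of Spopl was 1.04 higher with siP53 but stood at -0.87 with siLincp21 and -0.87 with siHnrnpk. Some of Lamp2 lay between -0.22 and 0.14 with the 3 siRNAs, while another stood at 1.18, 1.13 and 0.96. The member probe sets of Vamp3, Elovl5, Trib3, Fmod and Il17d are of a type that may also bind other transcripts, so their values are less certain.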

How the data were processed

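RNA of 30 samples was measured on Affymetrix arrays. The deposited values are log2 signals that the authors computed with RMA, per the submitters' processing notes, which name no version. Array medians were 4.98 to 5.03 in the time course, 4.83 to 4.91 in the hnRNPKKD set and 5.55 to 5.66 in the lincP21KD set, so levels were compared within a set only. On arrays, the number of arrays limits the precision. An experiment with RAS tumour cells is not used here.

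Of 45101 probe sets, 34958 had 1 gene symbol, 932 several and 9211 none; 34754 of the first had an updated gene entry (GRCm38.p6). They named 18194 genes, and 12674 had a mean above the lowest 40% of all probe sets (log2 4.54). limma 3.58.1 in R 4.3.3 (lmFit, eBayes) was fitted on all of these with Benjamini-Hochberg adjustment and a call at 0.05: the 8 lincP21KD arrays in 1 fit, and the 10 time course arrays with time as a block or with hours within virus as a slope. The fits were run on simulated data with independent noise and planted changes larger than the member medians in the lincP21KD set. That run does not show how well changes of the members' size are found. The members, gene lists and tests were chosen with earlier results of these data known. Every member was named. Per-array values were given for the 12 members with the largest smallest-of-3 difference and for up to 8 called members per comparison and direction, ranked by size of the log2 change. Same-numbered lincP21KD arrays correlated by -0.22 to 0.34 in their deviations. Between siP53 and siLincp21, same-numbered arrays correlated by 0.05 to 0.34 and differently numbered ones by -0.30 to 0.21. The deviations of the 2 control arrays mirror each other, so their correlations say little about pairing. Whether the numbers mark pairs is not known, and the main fit did not treat them as pairs. Other settings tried were the filter, scaling, probe set choice, eBayes options, array weights, the block, the threshold and leaving out arrays.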

Additional observations from a re-analysis of the deposited data

How the results depend on the processing

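The number of members, 122, was 257 with a threshold of 0.5, 37 with 1.0, and 68 (65 of them among the 122) with the mean of all probe sets of a gene; leaving out 1 array gave 110 to 158. In the lincP21KD set, leaving out 1 array gave 40 to 76 higher members with siP53 and 38 to 77 with siLincp21. Both were lowest without the first siControl array, where the calls over all tested genes were also fewest, 288 and 172. The members lower with siLincp21 numbered 0 with no filter, 0 with quantile scaling, 3 with each array centred, 2 with eBayes trend and robust, 3 with array weights, and 0 to 1 with 1 array left out; Tcfl5 was not among the 2 with eBayes trend and robust, nor the 1 without the second siP53 array. Replicate numbers are shared by the groups, and whether they pair the arrays is not known. With the replicate block, siP53 had 75 higher and 1 lower, siLincp21 78 and 2, and the direct comparison 19 and 23. Between the viruses, members numbered 11 higher and 19 lower with quantile scaling, 9 and 19 with each array centred, and 8 and 7 without the time block. With 1 time left out there were 9 to 11 higher and 7 to 12 lower. The counts of all tested genes shifted too, as given with the time course. For AdenoCRE slopes, higher members numbered 1 with no filter, 1 on the log2 of hours plus 1 and 0 to 2 with 1 time left out. The falling members numbered 7 with quantile scaling, 8 with eBayes trend and robust, 1 on the log2 scale of hours and 0 to 4 with 1 time left out. The cause of these shifts was not tested. Of 56 calls recomputed gene by gene, 0 reversed and 20 were lost in some setting; other members were followed as counts, and those above 0 numbered 112 with siP53 but 109 without the first siControl array. With 2 control arrays in the lincP21KD set and 1 array per time and virus, small differences cannot be resolved.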
